A study of Homo sapiens with 12 samples.

Results

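Keratins are the intermediate filament proteins of epithelial cells, and 9 keratin genes are described here in kidney cells exposed to a toxic compound: the type II genes KRT7, KRT8, KRT80 and KRT81 and the type I genes KRT10, KRT18, KRT19, KRT20 and KRT23. Probe sets whose platform annotation names 1 of these genes alone were taken, and for each gene the brightest one on average over the 12 arrays leads. Of the 9 genes, 8 had such a probe set, with 14 probe sets in all, out of 54613 probe sets in the series. KRT81 was not analysed here. The set was chosen from measured values of these same arrays: KRT20 was picked on its lower level with Nnm at both times, so its Nnm values are a description and carry no test.

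Expression was measured on 12 Affymetrix arrays, 1 sample each, in HK-2 cells, an immortalized line made from human proximal tubule epithelium. The labels give 4 groups of 3 biological replicates: HK-2 cells with a high dose of Nnm for 24 h, HK-2 cells with the control vehicle for 24 h, HK-2 cells with a high dose of Nnm for 48 h and HK-2 cells with the control vehicle for 48 h. All 4 groups shared a DMEM and Ham's F12 medium that held EGF, hydrocortisone, insulin, transferrin and selenite, and treatment began near confluence. The study looked for expression signatures of kidney toxicity. Nnm is the labels' own name for the compound, and they give no dose beyond high. HK-2 is 1 established line, so the replicates are not different people, and p-values measure the spread between these cultures.

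Keratin filaments are built from pairs of 1 type I and 1 type II protein. KRT8 and KRT18 form the usual pair of simple epithelia, KRT7 and KRT19 join them in ducts and in tubule cells under stress, and the filaments hold the cell together against mechanical and chemical injury. KRT20 is a type I keratin of the gut lining, of umbrella cells of the urinary tract and of Merkel cells, and in kidney injury models in rodents it appears in damaged tubules. KRT10 is known as the partner of KRT1 in the upper epidermis, KRT80 as a keratin of many epithelia, KRT81 as a hair keratin and KRT23 as a type I keratin of glands and gut.

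The type II genes and KRT18 lie together on chromosome 12, which holds 5 of the 9 genes, and the other 4, all type I, lie on chromosome 17. Promoter sequences from RefSeq (GRCh38.p14) were found for 3 of the 9 genes, KRT8, KRT10 and KRT20. The windows of KRT20 and KRT10 are shown because of how their arrays lay. Only these 2 of the 7 keratins above the filter had no overlap of Nnm and control arrays at both times, in opposite directions. KRT18 and KRT19 had no overlap at 24 h alone. Of all tested probe sets 37.2% had no overlap at 24 h and 34.8% at 48 h, each time counted alone and in either direction. The share with no overlap at both times was not counted. Each window holds the 250 bases before the transcript start on the minus strand, chr17:40885243-40885492 for KRT20 and chr17:40822615-40822864 for KRT10. Capitals mark matches to any of the motifs searched.
KRT20: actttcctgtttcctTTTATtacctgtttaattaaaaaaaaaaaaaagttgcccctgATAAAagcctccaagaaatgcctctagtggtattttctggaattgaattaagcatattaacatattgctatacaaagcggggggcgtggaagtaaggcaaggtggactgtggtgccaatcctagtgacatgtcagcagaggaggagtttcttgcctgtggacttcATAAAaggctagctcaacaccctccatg
KRT10: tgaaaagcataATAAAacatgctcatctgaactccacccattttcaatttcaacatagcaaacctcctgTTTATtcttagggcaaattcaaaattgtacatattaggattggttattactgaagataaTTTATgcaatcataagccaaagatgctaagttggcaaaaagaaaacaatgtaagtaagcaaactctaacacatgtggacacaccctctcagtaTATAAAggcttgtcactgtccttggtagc

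The motifs were searched on both strands. TATAAA, the TATA box, was in 10.7% of the 35116 promoter windows of this length, with 1 match in KRT10, at -29, and 0 in KRT20. TTTAT, the core of the site bound by the intestinal factors CDX1 and CDX2, was in 32.7% of the windows. It matched 3 times in KRT20, at -235, -193 and -28, and 4 times in KRT10, at -239, -181, -122 and -28, the last of these overlapping the TATA box. TGANTCA, the AP-1 site, was in 6.57% of windows, and GGGCGG, the core of the Sp1 site, was in 42.6%. Neither of these was in the window of KRT20 or KRT10. Positions count back from the transcript start to the first base of the match, and a match is a description of the letters only. CDX1 and CDX2 themselves had log2 group means under the level of 4 used as a filter in all 4 groups (2.36 to 2.38 for CDX1, 2.07 to 2.08 for CDX2).

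Array medians were 2.91 to 2.98, with 22023 to 22228 probe sets over log2 4. On the first principal component, which held 57.4% of the variance, Nnm replicates 1 and 3 of both times lay between 68.6 and 87.8 and the control arrays between -49.6 and -44.2. The Nnm arrays numbered 2 lay at -16.1 at 24 h and -19.8 at 48 h, near the control arrays, so results are also given without them. Of 12 proximal tubule markers on the array, 3 had group means above log2 4 (DPP4, PAX8 and SLC3A1), while the transporters and receptors that define the mature tubule, among them AQP1, LRP2 and CUBN, were under 2.6 in all 4 groups. Of other cell types, 0 of 5 urothelial, 0 of 6 stratified and 0 of 5 intestinal markers were above log2 4, against 2 of 7 distal nephron, 3 of 6 fibroblast, 2 of 4 podocyte and 1 of 5 endothelial markers. Summed on the linear scale at 48 h, the proximal tubule markers gave 8981 to 14066 on Nnm arrays and 5863 to 6676 on control arrays. The distal nephron markers gave 1120 to 1419 on Nnm arrays and 792 to 894 on control arrays, the podocyte markers gave 186 to 236 on Nnm arrays and 138 to 170 on control arrays, and the endothelial markers gave 54.3 to 57.9 on Nnm arrays and 43.1 to 51.0 on control arrays. The sums of the line's own type and of these other types were thus all higher with Nnm at 48 h, without overlap. Taken singly, 18.7% of tested probe sets were higher without overlap at 48 h. Among 3 proximal tubule, 2 distal nephron, 2 podocyte and 1 endothelial markers tested, 0 had an adjusted p under 0.05 at 48 h (limma). Of all tested probe sets 10.2% did. At an unadjusted p under 0.05 there were 2, 1, 1 and 0 markers, in that order. The fibroblast markers overlapped, with 4159 to 6435 on Nnm arrays and 5009 to 5356 on control arrays at 48 h. At 24 h the podocyte markers gave 178 to 236 on Nnm arrays and 137 to 169 on control arrays. The proximal tubule, distal nephron, fibroblast and endothelial sums overlapped between Nnm and control arrays at 24 h. The part of these marker sums in the keratin results was not tested.

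KRT20 was the keratin with the largest difference between Nnm and control cells. At 24 h its log2 values were 3.12, 6.27 and 4.22 on the Nnm arrays (replicates 1, 2 and 3), against 6.88, 8.10 and 6.83 on the control arrays. At 48 h they were 4.97, 5.86 and 6.31 on the Nnm arrays, against 8.22, 9.38 and 9.25 on the control arrays. Every Nnm array was below every control array of its time, with a gap of 0.56 at 24 h and 1.91 at 48 h. No overlap in this direction was found for 18.9% of all tested probe sets at 24 h and 16.1% at 48 h. The group means were 4.54 ± 1.60 with Nnm and 7.27 ± 0.72 in control cells at 24 h (SD, n = 3 each), a log2 difference of -2.73 or 6.65-fold lower with Nnm. Nnm replicate 1 of 24 h, at 3.12, was under the filter level of log2 4, where signal over background is unknown. At 48 h the means were 5.71 ± 0.68 with Nnm and 8.95 ± 0.63 in control cells (SD, n = 3 each), a log2 difference of -3.24 or 9.43-fold lower with Nnm. In bulk RNA, fewer cells of a type and less RNA per cell cannot be told apart.

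**Figure D1:**
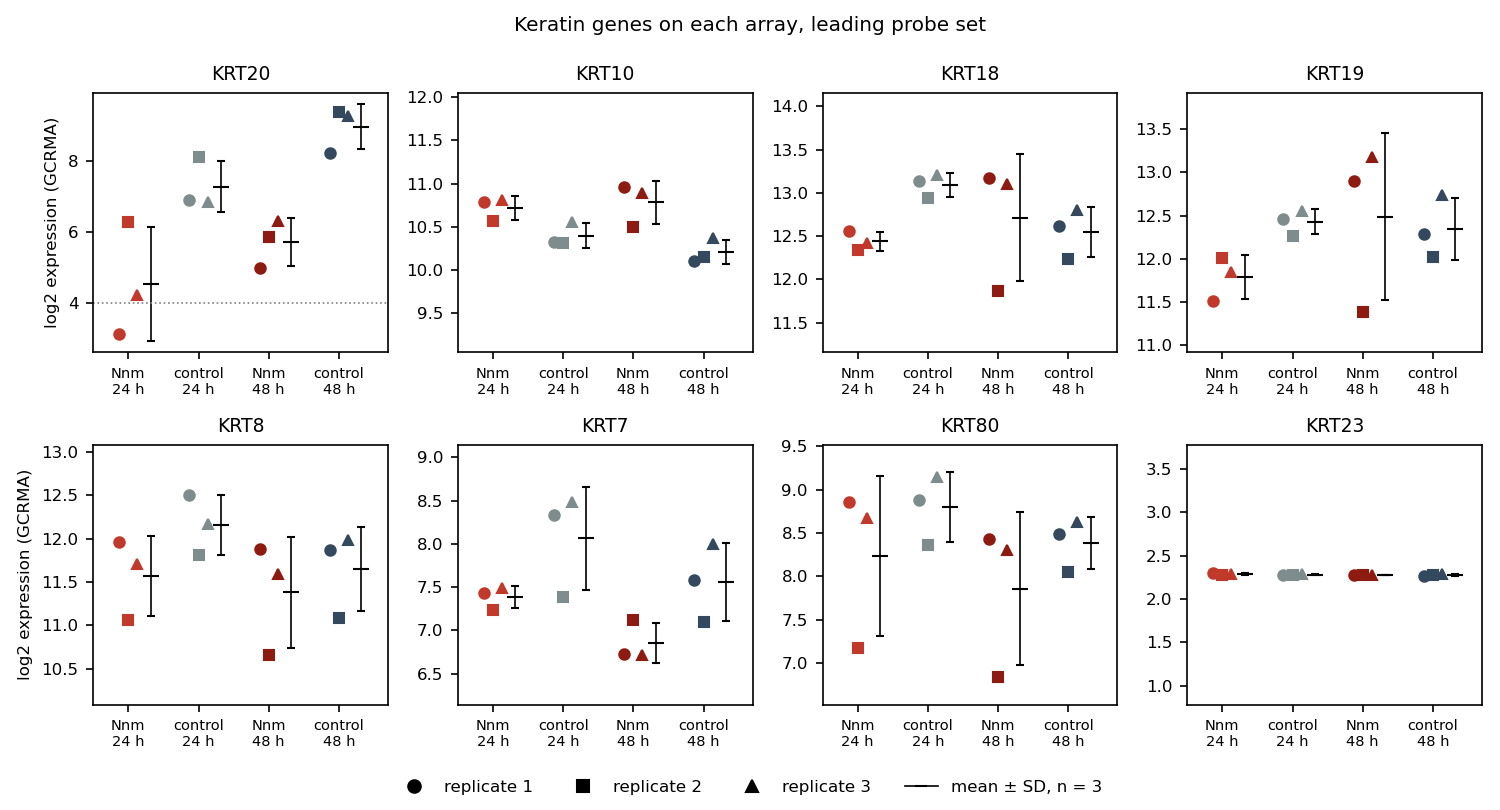
Log2 expression (GCRMA) of 8 keratin genes on each of the 12 arrays, with the group mean and SD (n = 3) beside the points; Nnm stands left of control at each time, every panel has its own vertical axis, and the dotted line marks log2 4. KRT20 on Nnm arrays lies between 3.12 and 6.31, below the control arrays of the same time, while KRT23 stays between 2.26 and 2.30 on all 12 arrays.

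The deposited replicate numbers allow a difference per number. For KRT20, Nnm minus the control array of the same number was -3.76, -1.82 and -2.61 at 24 h for replicates 1, 2 and 3. At 48 h it was -3.25, -3.52 and -2.94. The Nnm arrays numbered 2, which resembled control arrays over all probe sets, were thus lower for KRT20 too. At 48 h the KRT20 difference of replicate 2 was the 2nd lowest of the 22829 tested probe sets, and those of replicates 1 and 3 were the 63rd and 85th lowest. At 24 h the places were 23rd, 35th and 193rd for replicates 1, 2 and 3. KRT20 was chosen on these values, so its places are a description only. The differences of all tested probe sets were also less spread in replicate 2. Their SD was 0.96, 0.44 and 0.95 at 24 h and 0.94, 0.43 and 0.85 at 48 h for replicates 1, 2 and 3. Probe sets were tested where the log2 value was above 4 on at least 3 arrays.

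**Figure D2:**
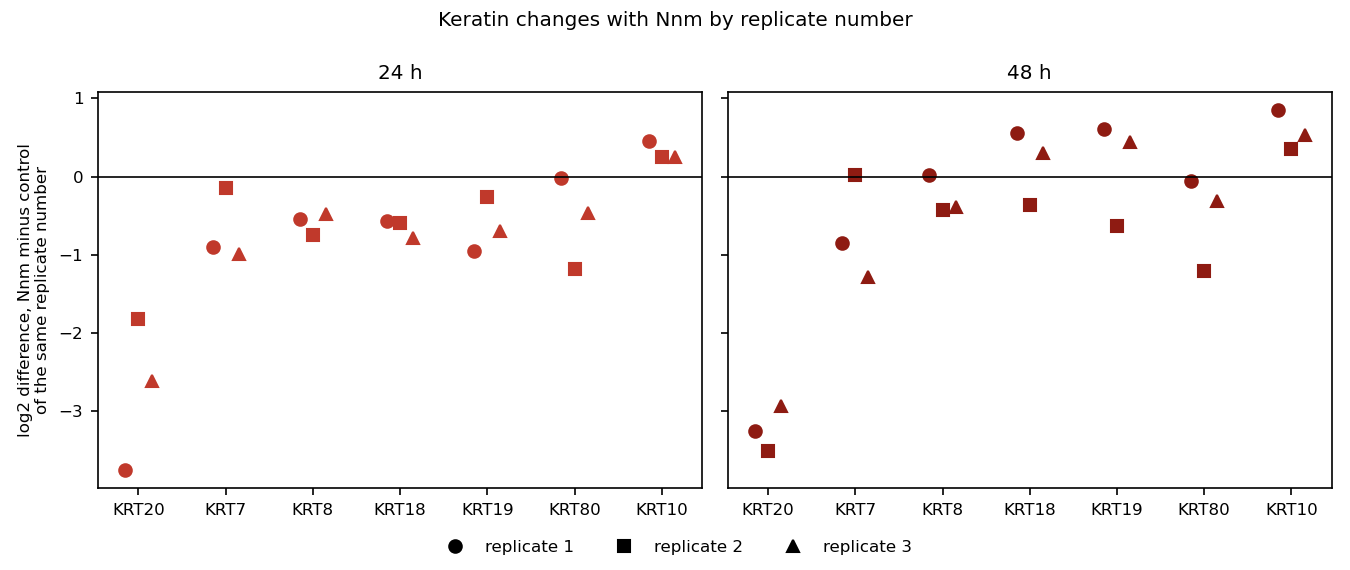
Log2 difference, Nnm minus the control array of the same replicate number, for the 7 keratin genes above the filter, at 24 h (left) and 48 h (right). The KRT20 points lie between -3.76 and -1.82, the KRT10 points all lie above 0, and KRT18 and KRT19 lie below 0 at 24 h but on both sides of 0 at 48 h.

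KRT20 was set against the simple-epithelial keratins KRT7, KRT8, KRT18 and KRT19, as the change of KRT20 minus the mean change of those 4 genes. This was -2.09 at 24 h, with a pooled SD over arrays of 1.40, and -3.07 at 48 h, with a pooled SD of 0.88 (n = 3 each). Without the Nnm arrays numbered 2 it was -3.03 at 24 h and -3.45 at 48 h. Leaving out 1 array at a time gave -3.03 to -1.35 at 24 h and -3.47 to -2.55 at 48 h, the smallest being without Nnm replicate 1 of its time.

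Of the 6 keratins other than KRT20 that could be tested at 24 h, 0 passed an adjusted p of 0.05 (limma over all 12 arrays, Benjamini-Hochberg over 22829 probe sets), where 14.7% of tested probe sets passed, 7.32% as higher and 7.42% as lower. At an unadjusted p under 0.05 there was 1, KRT7. At 48 h 1 of 6 passed, KRT10, which was higher with Nnm, where 10.2% of tested probe sets passed 5.74% as higher and 4.44% as lower. At an unadjusted p under 0.05 there were 2, KRT7 and KRT10. The median change of these 6 keratins was -0.61 at 24 h and -0.06 at 48 h, and with KRT20 it was -0.64 and -0.27, beside -0.01 at 24 h and 0.01 at 48 h for all tested probe sets.

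KRT7, the type II keratin of ducts and transitional epithelium, had log2 values of 7.43, 7.24 and 7.49 on Nnm arrays at 24 h, against 8.33, 7.38 and 8.48 on control arrays. At 48 h the values were 6.73, 7.12 and 6.72 on Nnm arrays, against 7.58, 7.09 and 8.0 on control arrays. The groups overlapped only through control replicate 2, which was the lowest control array at each time. The change was -0.68 at 24 h (95% interval -1.34 to -0.02, adjusted p = 0.132, limma) and -0.70 at 48 h (-1.36 to -0.04, adjusted p = 0.144, limma). Without control replicate 2 of 24 h, the 24 h change was -1.02 (adjusted p = 0.0409, limma), in a fit where 8.64% of tested probe sets passed. It was the only pass in the 12 fits that left out 1 array (change -1.02 to -0.47, adjusted p = 0.0409 to 0.360, limma). That fit drops the array through which the groups overlapped, so no test of KRT7 can be read from its p-value. KRT7 had 3 further probe sets, all with group means under 2.8, which were not tested.

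KRT8, the type II partner of KRT18, had log2 values of 11.96, 11.06 and 11.70 on Nnm arrays at 24 h, against 12.50, 11.81 and 12.18 on control arrays. At 48 h they were 11.88, 10.66 and 11.59 on Nnm arrays, against 11.87, 11.09 and 11.98 on control arrays. The groups overlapped at both times, but replicate 2 was the lowest array of every group, and at 24 h each Nnm array was below the control array of its own number. The change was -0.59 at 24 h (95% interval -1.40 to 0.22, adjusted p = 0.271, limma). With the replicate number as a block, KRT8 passed at 24 h (adjusted p = 0.0222, limma), in a fit where 29.3% of tested probe sets passed, 15.1% as lower. At 48 h the change was -0.27 (-1.08 to 0.55, adjusted p = 0.658), and without Nnm replicate 2 it was 0.09. The probe sets of KRT8 and KRT18 are of the kind that also matches related sequences, and both genes have many processed pseudogenes, so their values may include other transcripts.

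KRT80, a type II keratin found in many epithelia, had log2 values of 8.86, 7.17 and 8.68 on Nnm arrays at 24 h, against 8.88, 8.36 and 9.15 on control arrays. At 48 h they were 8.43, 6.84 and 8.31 on Nnm arrays, against 8.49, 8.05 and 8.62 on control arrays. The Nnm arrays numbered 2 were the lowest at both times. The change was -0.56 at 24 h (adjusted p = 0.454, limma) and -0.53 at 48 h (adjusted p = 0.507, limma). Set against the control array of the same number, KRT80 was lower in every pair, with differences of -0.02, -1.18 and -0.47 at 24 h and -0.06, -1.21 and -0.31 at 48 h for replicates 1, 2 and 3. Replicate 2 gave the largest difference at both times. Without the Nnm arrays numbered 2 the change was -0.03 at 24 h and -0.02 at 48 h, in a fit that kept control replicate 2, the lowest control array at each time.

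KRT18, the type I partner of KRT8, had log2 values of 12.56, 12.34 and 12.43 on Nnm arrays at 24 h, against 13.13, 12.94 and 13.21 on control arrays. All 3 Nnm arrays were below all 3 control arrays, as for 37.2% of tested probe sets in either direction and 18.9% in this one. At 48 h the values were 13.17, 11.87 and 13.10 on Nnm arrays, against 12.61, 12.23 and 12.80 on control arrays, so that Nnm replicates 1 and 3 were above the control arrays and replicate 2 below them. The change was -0.65 at 24 h (95% interval -1.33 to 0.02, adjusted p = 0.150, limma) and 0.17 at 48 h (-0.51 to 0.84, adjusted p = 0.747, limma).

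KRT19, a type I keratin of ducts that lacks the usual tail domain, resembled KRT18 in that Nnm replicate 2 lay below the other Nnm arrays at 48 h. Its log2 values at 24 h were 11.51, 12.01 and 11.85 on Nnm arrays, against 12.46, 12.27 and 12.55 on control arrays, with no overlap. At 48 h they were 12.89, 11.39 and 13.18 on Nnm arrays, against 12.29, 12.03 and 12.73 on control arrays, again with replicates 1 and 3 above and replicate 2 below. The change was -0.64 at 24 h (95% interval -1.51 to 0.24, adjusted p = 0.268, limma) and 0.14 at 48 h (-0.73 to 1.01, adjusted p = 0.842, limma). The other probe set of KRT19 had group means under 2.4 and was not tested.

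The 48 h changes of KRT18 and KRT19 depended on single arrays. Without Nnm replicate 2 of 48 h, the change was 0.59 for KRT18 (adjusted p = 0.0360, limma) and 0.69 for KRT19 (adjusted p = 0.0498, limma). Without Nnm replicate 1 of 48 h it was -0.06 for both genes, and without Nnm replicate 3 of 48 h it was -0.03 for KRT18 and -0.21 for KRT19. Without control replicate 2 of 48 h, KRT19 was at -0.02. The 24 h change of KRT18, -0.65, passed without Nnm replicate 2 of 48 h (adjusted p = 0.0226, limma). Without both Nnm arrays numbered 2, KRT18 was lower at 24 h (-0.60, adjusted p = 0.0178) and higher at 48 h (0.59, adjusted p = 0.0221), and KRT19 was lower at 24 h (-0.75, adjusted p = 0.0185) and higher at 48 h (0.69, adjusted p = 0.0292, limma). In that fit 47% of tested probe sets passed at 24 h and 42.1% at 48 h. The 2 arrays were left out for lying near the control arrays, so no test of KRT18 or KRT19 can be read from such p-values. The same fit gave -0.61 at 24 h and -0.83 at 48 h for KRT7, -0.33 and 0.09 for KRT8, and 0.40 and 0.72 for KRT10. For KRT20 it gave -3.60 at 24 h and -3.31 at 48 h, as a description.

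KRT10, in skin the partner of KRT1, had its higher values on Nnm arrays at both times and passed the test at 48 h. Its log2 values at 24 h were 10.78, 10.56 and 10.81 on Nnm arrays, against 10.33, 10.31 and 10.56 on control arrays, with replicate 2 of Nnm and replicate 3 of control almost level. At 48 h they were 10.96, 10.50 and 10.89 on Nnm arrays, against 10.11, 10.15 and 10.37 on control arrays. No Nnm array was at or below a control array at either time, as for 18.4% of tested probe sets at 24 h and 18.7% at 48 h in this direction. The change was 0.32 at 24 h (95% interval -0.02 to 0.66, adjusted p = 0.165, limma) and 0.58 at 48 h, 1.49-fold (0.23 to 0.92, adjusted p = 0.0429, limma).

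KRT10 had 2 further probe sets above the filter, and in each of them every Nnm array was above every control array of its time. Both are of the kind that also matches related sequences, as for KRT8 and KRT18. They were read on the same arrays, so they are not independent of the leading probe set. Their changes were 0.29 and 0.30 at 24 h and 0.59 and 0.52 at 48 h, with adjusted p-values of 0.0631 and 0.0448 (limma) at 48 h. The 48 h call was lost in 10 of the 12 fits that left out 1 array (adjusted p = 0.00674 to 0.159 over the 12 fits, limma, change 0.49 to 0.72), and it held without Nnm replicate 2 of 24 h or of 48 h. The 10 fits passed 0.907% to 8.37% of all tested probe sets at 48 h, against 10.2% in the main fit. The 2 fits where the call held passed 20.2% and 26.8%. KRT1, its partner in skin, was among the keratins under the filter.

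KRT23, a type I keratin of glands and gut, was between 2.26 and 2.30 on all 12 arrays and was not tested.

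Control cells at 48 h were set against control cells at 24 h, which asks what time in culture alone changed. Of the 6 keratins other than KRT20, 0 passed (limma), as did 0 of the 22829 probe sets, so 0% of all, and 0 had an unadjusted p under 0.05. Their differences were -0.54 to -0.08. The control arrays of KRT20 entered its choice, so its values are again a description. KRT20 was higher on all 3 control arrays of 48 h (8.22, 9.38 and 9.25) than on all 3 of 24 h (6.88, 8.10 and 6.83), without overlap, as for 23.3% of tested probe sets in either direction and 11.2% in this one. The difference of the means was 1.68 on the log2 scale. On Nnm arrays the KRT20 means were 5.71 ± 0.68 at 48 h and 4.54 ± 1.60 at 24 h (SD, n = 3 each), and this difference was not tested.

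The change of the Nnm effect between the times was tested as the 48 h effect minus the 24 h effect. Of the 6 keratins other than KRT20, 0 passed (limma), as did 0% of tested probe sets, and 0 had an unadjusted p under 0.05. It was 0.82 for KRT18 (95% interval -0.13 to 1.77, adjusted p = 0.780, limma) and 0.78 for KRT19 (-0.46 to 2.01, adjusted p = 0.818, limma). Without the Nnm arrays numbered 2 it was 1.19 for KRT18 (adjusted p = 0.0198) and 1.44 for KRT19 (adjusted p = 0.0221, limma), in a fit where 11.2% of tested probe sets passed and with the limit on these p-values given above. For KRT20 the value was -0.51, as a description.

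Beyond these genes, 46 other keratins were listed, of which 36 had a probe set naming the gene alone and 1, KRT15, passed the filter. The other 35 had group means of 1.73 to 3.38. KRT15, a type I keratin of basal cells, had log2 values of 7.68, 4.73 and 7.72 on Nnm arrays at 48 h, against 4.74, 4.72 and 4.82 on control arrays. Nnm replicates 1 and 3 stood apart and replicate 2 was level with the controls. The change was 0.68 at 24 h (adjusted p = 0.483, limma) and 1.95 at 48 h (adjusted p = 0.0787, limma), and 1.95 passed with the replicate number as a block (adjusted p = 0.0422).

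Of the 49 tested genes in 5 lists of filament, linker and regulator genes, KRT15 included, 9 passed at 24 h and 5 at 48 h, beside 14.7% and 10.2% of all tested probe sets. With the replicate number as a block 19 passed at 24 h and 16 at 48 h, where 29.3% and 22.1% of all tested probe sets passed. Without the Nnm arrays numbered 2, 31 passed at 24 h and 28 at 48 h, where 47% and 42.1% of all tested probe sets passed. Leaving out 1 array gave between 0 and 23 at 24 h and between 0 and 19 at 48 h. The fits that gave 23 and 19 called 38% and 26.8% of all tested probe sets. The count was 0 at 24 h without Nnm replicate 1, Nnm replicate 3 or control replicate 3 of 24 h. Those fits called 0.377%, 0.841% and 0.355% of all tested probe sets at 24 h. It was 0 at 48 h without Nnm replicate 1, Nnm replicate 3 or control replicate 1 of 48 h. Those fits called 1.06%, 0.907% and 1.32% at 48 h. DSC3 and SNAI1, of these lists, passed the filter through Nnm arrays alone. Neither is among the 9 and 5 main calls, but the counts of 19, 16, 31, 28 and 23 hold 1 or both. A pass of either is not read as a result.

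Among the other intermediate filament genes, 12 of 16 were tested. At 24 h 1 rose and 3 fell, and at 48 h 1 rose and 3 fell, with a median change of -0.79 at 24 h and -0.03 at 48 h. Of all tested probe sets 7.32% passed as higher and 7.42% as lower at 24 h, and 5.74% and 4.44% at 48 h. BFSP1, filensin of the eye lens, had log2 values of 7.76, 7.37 and 7.84 on Nnm arrays at 24 h, against 6.45, 6.15 and 6.06 on control arrays, and rose by 1.44 at 24 h (adjusted p = 0.0204, limma) and by 1.50 at 48 h (adjusted p = 0.0199, limma). LMNA, which encodes lamins A and C of the nuclear lamina, had log2 values of 9.69, 9.98 and 9.66 on Nnm arrays at 48 h, against 11.28, 10.58 and 11.23 on control arrays. All Nnm arrays of LMNA were lower, and it fell by 0.95 at 24 h (adjusted p = 0.0275) and by 1.25 at 48 h (adjusted p = 0.0146, limma).

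LMNB2, another lamin, fell by 0.97 and NES, the progenitor filament nestin, fell by 0.90 at 24 h (adjusted p = 0.0285 and 0.0482, limma). The NES call held in 3 of the 12 fits that left out 1 array, which passed 0.355% to 38% of all tested probe sets at 24 h. At 48 h the neurofilament genes NEFL and NEFM fell by 1.80 and 1.75 (adjusted p = 0.0218 and 0.0255, limma), NEFL to 5.11, 5.43 and 3.96 on Nnm arrays, against 6.96, 6.89 and 6.05 on control arrays. VIM, vimentin, the mesenchymal filament that cultured tubule cells also make, averaged 14.36 ± 0.18 with Nnm and 14.33 ± 0.14 in control cells at 24 h (SD, n = 3 each), a change of 0.03 (adjusted p = 0.915, limma). At 48 h VIM averaged 14.31 ± 0.33 with Nnm and 13.98 ± 0.13 in control cells (SD, n = 3 each), a change of 0.33 (adjusted p = 0.244, limma). VIM was named after its values were seen.

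Desmosomes and plakins anchor keratin filaments to junctions. Of 17 tested genes of this list 1 fell at 24 h and 0 passed at 48 h (limma). Of all tested probe sets 7.42% passed as lower at 24 h, and 10.2% passed in either direction at 48 h. At 48 h 5 genes, DSC3 included, had an unadjusted p under 0.05. The one that fell was MACF1, a plakin that links microtubules and actin, with log2 values of 11.12, 11.32 and 11.12 on Nnm arrays, against 11.65, 11.79 and 11.70 on control arrays, a change of -0.52 (adjusted p = 0.0208, limma). ITGB4, the integrin of hemidesmosomes, had a change of -0.99 at 24 h (adjusted p = 0.0546, limma). CD151, a tetraspanin of hemidesmosomes, had -0.96 at 48 h (adjusted p = 0.0630, limma). DSC3, a desmosomal cadherin, had log2 values of 4.98, 3.19 and 4.53 on Nnm arrays at 48 h, against 2.58, 2.84 and 3.14 on control arrays. It passed the filter through Nnm arrays alone, so no change is given for it. With the replicate block 4 genes of this list passed at each time, where 29.3% of all tested probe sets passed at 24 h and 22.1% at 48 h. The 48 h count holds DSC3, whose pass is not read as a result.

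Of 9 tested genes for proteins that bind or cleave keratins, 1 rose and 3 fell at 24 h, and 1 fell at 48 h. The shares of all tested probe sets were 7.32% higher and 7.42% lower at 24 h, and 4.44% lower at 48 h. SFN, 14-3-3 sigma, an epithelial adaptor protein, had log2 values of 9.65, 11.16 and 9.85 on Nnm arrays at 24 h, against 11.84, 11.97 and 11.85 on control arrays. All Nnm arrays were lower, replicate 2 the least, and SFN fell by 1.67 at 24 h (adjusted p = 0.0173) and by 1.31 at 48 h (adjusted p = 0.0377, limma), the 48 h call holding in 4 of 12 fits that left out 1 array. FAM83H, which brings casein kinase 1 to keratin filaments, had log2 values of 6.38, 7.16 and 6.66 on Nnm arrays at 24 h, against 8.10, 7.75 and 8.62 on control arrays, and fell by 1.43 (adjusted p = 0.0122, limma). TRADD, a death receptor adaptor that binds KRT18, fell by 0.67 and the initiator caspase CASP9 rose by 1.24 at 24 h (adjusted p = 0.0492 and 0.0378, limma). Nnm replicate 2 was near the control arrays for both, at 8.60 for TRADD and 7.68 for CASP9, and the calls held in 2 and 4 of the 12 fits that left out 1 array. These 12 fits passed 0.355% to 38% of all tested probe sets at 24 h and 0.907% to 26.8% at 48 h. TCHP, trichoplein, which binds KRT8 and KRT18, had a change of 0.47 at 48 h (adjusted p = 0.0559, limma).

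Of 10 tested transcription factors of epithelial and keratin genes, 0 passed at either time (limma), where 14.7% and 10.2% of all tested probe sets passed. At an unadjusted p under 0.05 there were 3 at 24 h, SNAI1 included, and 2 at 48 h. SNAI1, a repressor of epithelial genes, had log2 values of 6.35, 3.62 and 6.44 on Nnm arrays at 24 h, against 3.62, 3.63 and 3.65 on control arrays. Replicate 2 was level with the controls. SNAI1 passed the filter through Nnm arrays alone, as 1 of 2 such genes among the 49 with DSC3, so no change is given for it. ZEB1, a repressor of the same kind, had a change of 0.99 at 24 h (adjusted p = 0.0963, limma). At 48 h KLF5, an epithelial growth regulator, had -0.63 (adjusted p = 0.0525, limma) and TWIST1 had 0.92 (adjusted p = 0.0872, limma). With the replicate block 3 of these genes passed at 24 h and 2 at 48 h, where 29.3% and 22.1% of all tested probe sets passed. The 24 h count holds SNAI1, whose pass is not read as a result.

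**Figure D3:**
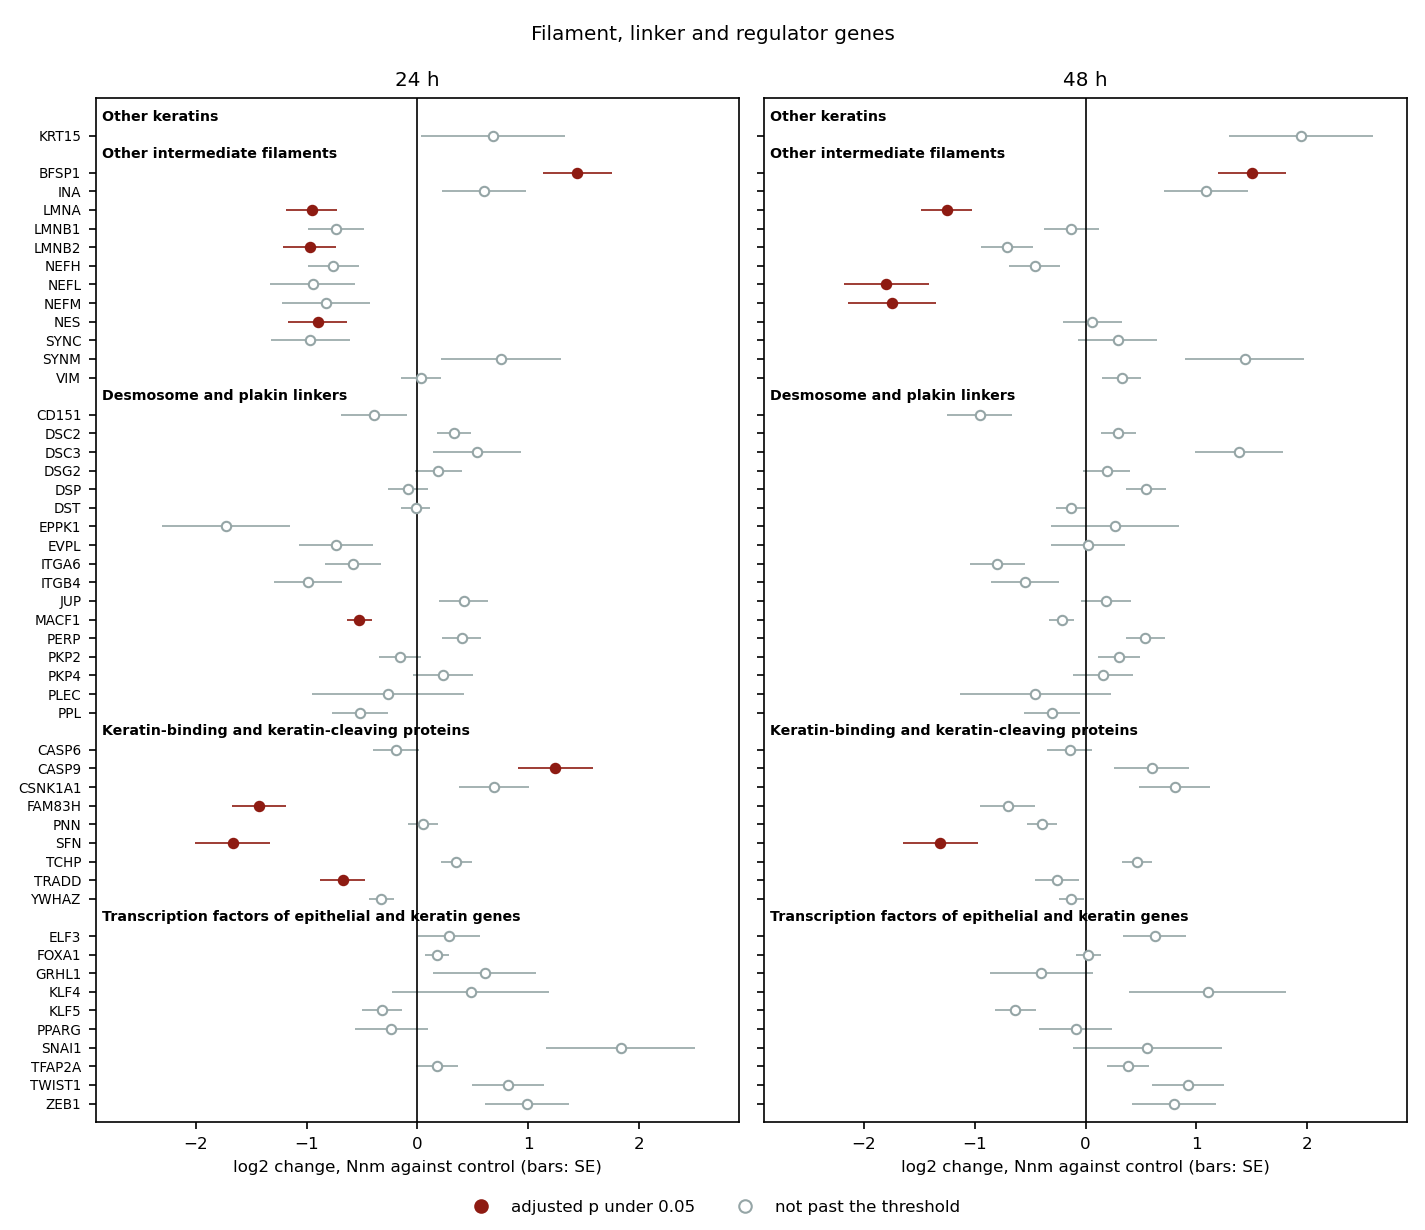
Log2 change, Nnm against control, with its SE (limma, 12 arrays), of the 49 tested genes of 5 lists at 24 h (left) and 48 h (right); filled points have an adjusted p under 0.05, and DSC3 and SNAI1 lie under log2 4 on all control arrays, so their points are not measured changes. The filled points number 9 at 24 h and 5 at 48 h, with BFSP1 to the right of 0 and LMNA and SFN to the left of 0 at both times.

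The genes most like KRT20 were found by the root mean square difference of log2 values over the 12 arrays, after each gene's own mean was subtracted, among 9628 other genes with a group mean of at least log2 6. They were the pseudogene ZBED10P at 0.816, CCDC146 at 0.841, the antisense RNA gene ZFHX4-AS1 at 0.925, the mitochondrial aldehyde dehydrogenase gene ALDH1B1 at 0.946 and the caveolar gene CAVIN2 at 0.966. The closest keratin, KRT19, was at 1.74, in place 2700, and the farthest, KRT10, was at 2.07, in place 7435.

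All 5 of these genes had their highest Nnm value of 48 h in replicate 2, unlike KRT20. In that replicate ZBED10P was at 7.78 with Nnm against 9.79 in control, and CCDC146 at 5.78 against 7.55. ZFHX4-AS1 was at 5.81 against 7.45 and ALDH1B1 at 7.37 against 8.52. At 24 h KRT20 itself had its highest Nnm value, 6.27, in replicate 2. CAVIN2 had log2 values of 5.03, 7.90 and 6.13 on Nnm arrays at 48 h, against 7.83, 8.18 and 8.15 on control arrays, so its replicate 2 was near the controls. KRT20 had its lowest Nnm value of 48 h in replicate 1 and lay at 5.86 in replicate 2, against 9.38 in the control array of that number. This likeness is a description over 12 arrays that the groups themselves order.

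**Figure D4:**
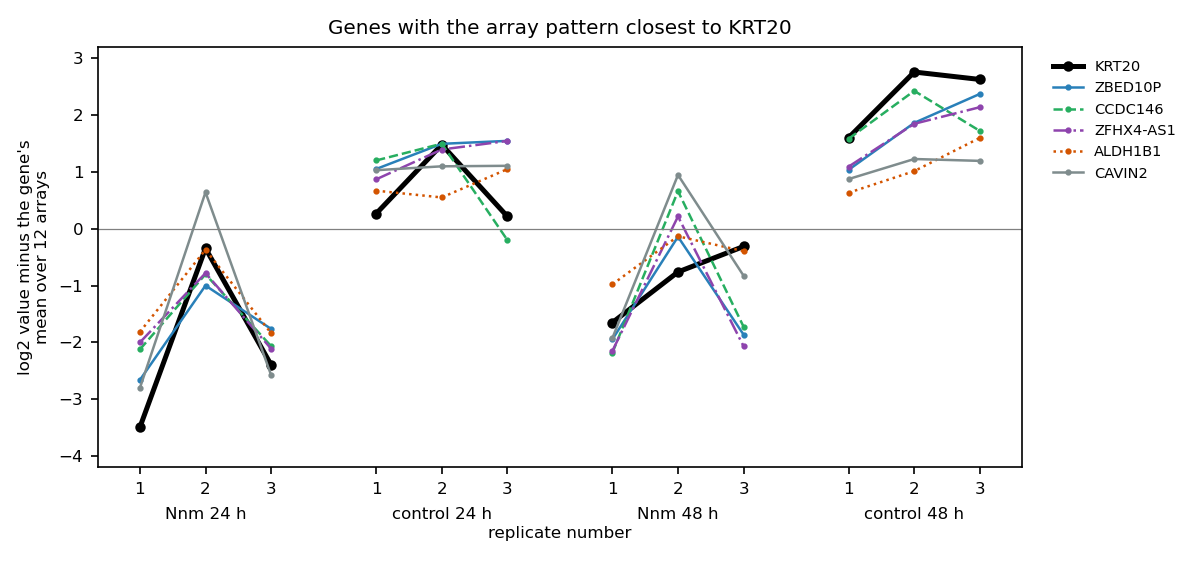
Log2 value minus the gene's mean over 12 arrays, for KRT20 and the 5 genes most like it, with Nnm left of control at each time; lines join the arrays of a group for reading only, since replicates have no order. KRT20 and the 5 genes are lower on Nnm replicates 1 and 3 than on control arrays of the same time, while on the Nnm arrays numbered 2 CAVIN2 lies near the controls and KRT20 does not at 48 h.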

How the data were processed

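Expression in the deposited table is on the log2 scale, 1 value for each probe set on each array. Per the submitters' processing notes the authors used GCRMA. GCRMA corrects background, normalizes arrays to one another and summarises probes, so a shift shared by most genes would not show; its version is not stated, and scanner files were not used here. Of 54675 probe sets, 62 controls were left out, and 22829 with log2 above 4 on at least 3 of 12 arrays were tested. The platform annotation named 1 gene for 41091 probe sets, several for 1801 and none for 11721; KRT81 was named alone by none, and KRT23 stayed under the filter, which left 6 keratins besides KRT20 where 8 had been planned.

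All 12 arrays entered 1 limma 3.58.1 model (R 4.3.3) with 4 group means and 8 residual degrees of freedom, Benjamini-Hochberg adjusted over all tested probe sets, and calls were made at 0.05. The script was tested on simulated data. Precision is limited by 3 arrays per group.

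The members and lists were chosen with earlier results of these data known. The text names the members, up to 4 called genes with the largest change per list and Nnm comparison (or, with under 2 called, the 2 of lowest p), and the 5 genes most like KRT20. Same-numbered arrays of different groups deviated together (18 of 18 correlations above 0.1, 0.162 to 0.669, against a median of -0.208 over 36 differently numbered pairs). By this check of the data the numbers appear to pair the samples, which the labels do not state. Alternatives were a replicate block, other filters, quantile normalization, an intensity trend, the mean of all probe sets, and left-out arrays.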

Additional observations from a re-analysis of the deposited data

How the results depend on the processing

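Of the keratins other than KRT20, 0 were called at 24 h and 1 at 48 h. At 24 h 1 was called with the replicate block (KRT8), 3 without both Nnm arrays numbered 2 and 0 to 1 when 1 array was left out. At 48 h 0 were called with no filter on low values, where 1.54% of all 54613 probe sets were called. Without both Nnm arrays numbered 2 there were 3 at 48 h, and 0 to 3 when 1 array was left out. For the change of the Nnm effect, 2 keratins were called without both Nnm arrays numbered 2, against 0, where 11.2% of all tested probe sets were called. The list genes called were 9 at 24 h and 5 at 48 h. They became 19 and 16 with the replicate block, where 29.3% and 22.1% of all tested probe sets were called. With no filter 2 and 1 of 106 list genes were called, where 1.55% and 1.54% of all 54613 probe sets were called. Without both Nnm arrays numbered 2 there were 31 and 28, and with 1 array left out 0 to 23 and 0 to 19. Without both Nnm arrays numbered 2, 47% of all tested probe sets were called at 24 h and 42.1% at 48 h, and the fits that gave 23 and 19 called 38% and 26.8%. The fits that gave 0 list genes called 0.355% to 0.841% at 24 h and 0.907% to 1.32% at 48 h. The list counts of 19, 16, 31, 28 and 23 hold DSC3 or SNAI1, with the limit on these given above. With no filter more probe sets enter the adjustment; for the other settings the cause was not tested.

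The KRT8 change at 48 h turned to 0.092 without Nnm replicate 2 of 48 h, and likewise without both Nnm arrays numbered 2. When 1 array was left out, the 48 h change ranged over -0.55 to 0.092 for KRT8, -0.062 to 0.59 for KRT18 and -0.21 to 0.69 for KRT19. KRT20 minus the simple keratins ranged over -3.03 to -1.35 at 24 h and -3.47 to -2.55 at 48 h. Of the 6 tested members the replicate block changed no other call, and KRT15 passed with it at 48 h. With the mean of all its probe sets KRT7 fell under the filter and gave no value. Quantile normalization, the intensity trend and the stricter filter at log2 5 left the counts of called keratins at 0 and 1. Without scanner files, signal over background is unknown for the values near log2 2 to 4.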
